A study of Mus musculus with 9 samples.

Results

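The chemokines and their receptors were followed in regenerating mouse liver. The 60 protein-coding genes whose symbol begins with *Ccl*, *Cxcl*, *Ccr*, *Cxcr*, *Cx3cl*, *Cx3cr*, *Xcl*, *Xcr* or *Ackr* and a number were taken from the 43346 genes of the deposited count table, of which 22032 are protein coding. They comprise 37 ligand and 23 receptor genes. The rule used names alone and no measured value.

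Whole liver RNA-Seq was available for 9 libraries in 3 groups of 3, all from mice labelled C57/BL6 (C57BL/6J in the study's methods) and aged 12 weeks. The baseline group was the tissue resected at 0 h from mice that received vehicle (normal saline), called the resection specimens here. The other groups were remnants taken 40 h after 70% partial hepatectomy from mice given vehicle, or NSC-87877 (NSC), an inhibitor of the phosphatases SHP2 and SHP1, at 7.5 mg/kg every 12 h (15 mg/kg per day) by intraperitoneal injection. Per the labels the doses began 12 h before surgery, whereas the study's methods give 1 day before. The methods describe male mice. No resection specimen of NSC-treated mice was among the libraries, so both remnant groups were set against the same 3 vehicle resection specimens. The study describes the 3 libraries of a group as biological replicates. Whether libraries of different groups came from the same mice is not stated.

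Chemokines are small secreted proteins that draw leukocytes along a gradient through receptors coupled to G proteins. Ligands of CXCR2 call neutrophils, ligands of CCR2 call blood monocytes, ligands of CXCR3 call activated T and NK cells, and CXCL12 and the CCR7 ligands place cells within tissues. Atypical receptors bind chemokines without driving migration and remove them. In the liver, hepatocytes, Kupffer cells, stellate cells and endothelial cells can all make chemokines, whereas most of the classical receptors sit on leukocytes.

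The stretch just before the start site is shown for *Cxcl1*, *Cxcl2*, *Cxcl10* and *Ccl9*, all with a match to the NF-κB consensus. *Cxcl3* is shown because it shares a sequence with *Cxcl1* and *Cxcl2*. The ligands *Cxcl12*, *Ccl6*, *Cxcl14*, *Ccl2* and *Ccl7* also carry results below, but were not among the members with a match and are not shown. RefSeq promoter windows (build GRCm38.p6) matched 46 of the 60 members. The first 250 bases of each window, upstream of the start, were searched on both strands for the NF-κB consensus and for the AP-1 motif TGANTCA, where N is any base. Each sequence runs 5′ to 3′ along the gene's strand, and capitals mark matches to the NF-κB consensus, some of which overlap. *Cxcl1* lies at chr5:90890995-90891244, *Cxcl2* at chr5:90903649-90903898 and *Cxcl3* at chr5:90785851-90786100, all on the plus strand, while *Cxcl10* at chr5:92348890-92349139 and *Ccl9* at chr11:83578637-83578886 are on the minus strand.
Cxcl1: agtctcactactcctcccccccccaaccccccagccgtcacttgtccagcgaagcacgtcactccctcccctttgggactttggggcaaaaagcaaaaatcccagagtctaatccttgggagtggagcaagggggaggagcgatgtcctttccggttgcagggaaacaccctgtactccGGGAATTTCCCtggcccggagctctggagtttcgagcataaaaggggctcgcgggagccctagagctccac
Cxcl2: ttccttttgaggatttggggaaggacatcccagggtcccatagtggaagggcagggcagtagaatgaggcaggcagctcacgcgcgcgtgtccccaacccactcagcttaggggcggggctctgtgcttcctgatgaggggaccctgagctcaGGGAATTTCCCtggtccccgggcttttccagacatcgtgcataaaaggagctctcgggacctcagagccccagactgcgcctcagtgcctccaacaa
Cxcl3: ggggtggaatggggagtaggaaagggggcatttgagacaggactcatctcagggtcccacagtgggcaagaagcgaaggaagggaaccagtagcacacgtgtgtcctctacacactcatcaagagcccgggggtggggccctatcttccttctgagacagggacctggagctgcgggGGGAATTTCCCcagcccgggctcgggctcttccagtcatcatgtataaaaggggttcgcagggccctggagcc
Cxcl10: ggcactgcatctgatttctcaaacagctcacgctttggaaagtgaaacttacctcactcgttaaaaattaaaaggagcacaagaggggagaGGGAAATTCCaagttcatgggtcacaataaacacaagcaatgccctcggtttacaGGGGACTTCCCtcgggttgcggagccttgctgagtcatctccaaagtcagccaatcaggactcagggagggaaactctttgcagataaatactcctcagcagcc
Ccl9: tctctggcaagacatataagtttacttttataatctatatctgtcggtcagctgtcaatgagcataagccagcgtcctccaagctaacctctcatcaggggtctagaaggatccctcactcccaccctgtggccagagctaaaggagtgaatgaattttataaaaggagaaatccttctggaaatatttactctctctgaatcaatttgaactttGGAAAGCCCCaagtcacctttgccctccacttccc

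The neutrophil-attracting ligands *Cxcl1*, *Cxcl2* and *Cxcl3* held the same match, GGGAATTTCC, beginning 71, 97 and 73 bases before the start. The *Cxcl10* window held separate matches at 159 and 104 bases, and an AP-1 motif at 74 bases. In *Ccl9*, the match was on the opposite strand and began 35 bases before the start, with an AP-1 motif at 53 bases. In all, the NF-κB consensus was found in 11 of the 46 matched members (23.9%) and in 8.23% of the 27025 genes with a window, or 7.25% of the 32851 windows. The AP-1 motif was found in 6 of the 46 members (13.0%) and in 7.82% of genes, or 6.75% of windows. Of the 23 matched members that could be tested, 6 held the NF-κB consensus. These are matches of letters, not measured binding.

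The libraries held 23997363 to 42887589 counts on genes, so that 3 counts, the floor used here, equal 0.0751 to 0.117 counts per 1000000 counts of the scaled library (CPM), which covers counting error only. Hepatocyte marker genes were at high levels in every library, with summed levels of 112999 to 163151 CPM. Library NSC replicate 1 stood apart in leukocyte markers. The summed level of the 6 Kupffer cell markers was 182, 124 and 135 CPM in the resection specimens, 192, 234 and 129 in vehicle remnants and 418, 261 and 279 in NSC remnants. For the 6 pan-leukocyte markers the corresponding sums were 42.2, 27.6 and 39.7, then 42.0, 47.6 and 28.7, then 72.8, 39.7 and 45.5 CPM. Where results below rest on that library, they are given without it as well.

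Of the 60 members, 30 (19 ligands and 11 receptors) had enough counts to be tested among 15024 genes with edgeR's quasi-likelihood test, and a call below means a Benjamini-Hochberg adjusted p under 0.05 over all of these genes. The filter asked for counts in at least 3 libraries, so that a scarce gene, such as *Ccl7* or *Ccl28*, could enter through the group where it was high, and the counts of called members are given as a description. In vehicle remnants, 9 members were higher than in the resection specimens, where 12.7% of all tested genes were called higher, and 3 were lower, where 11% of all genes were. In NSC remnants, 12 were higher, against 18.2% of all genes, and 1 was lower, against 16.5% of all genes. When a log2 fold change over 1.5 was also required, the vehicle comparison gave 9 higher and 2 lower (background 5.03% and 2.19%), and the NSC comparison 10 higher and 1 lower (background 5.38% and 2.75%). The median log2 fold change of the tested members was 0.29 in vehicle and 0.48 in NSC remnants, beside 0.01 over all tested genes in each. With at least 10 counts required in every library, 18 members were left, of which 4 were higher and 1 lower in vehicle (background 12.6% and 11.6%) and 8 higher and 0 lower in NSC remnants (background 19% and 17.9%). Without NSC replicate 1, 32 members were tested, and the counts became 12 higher and 5 lower for vehicle (background 15.8% and 13.7%) and 9 higher and 3 lower for NSC (background 17.8% and 15.9%). Because both comparisons use the same resection specimens, they are not independent of each other. In these bulk samples, fewer cells of a type and less RNA per cell cannot be told apart.

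**Figure D1:**
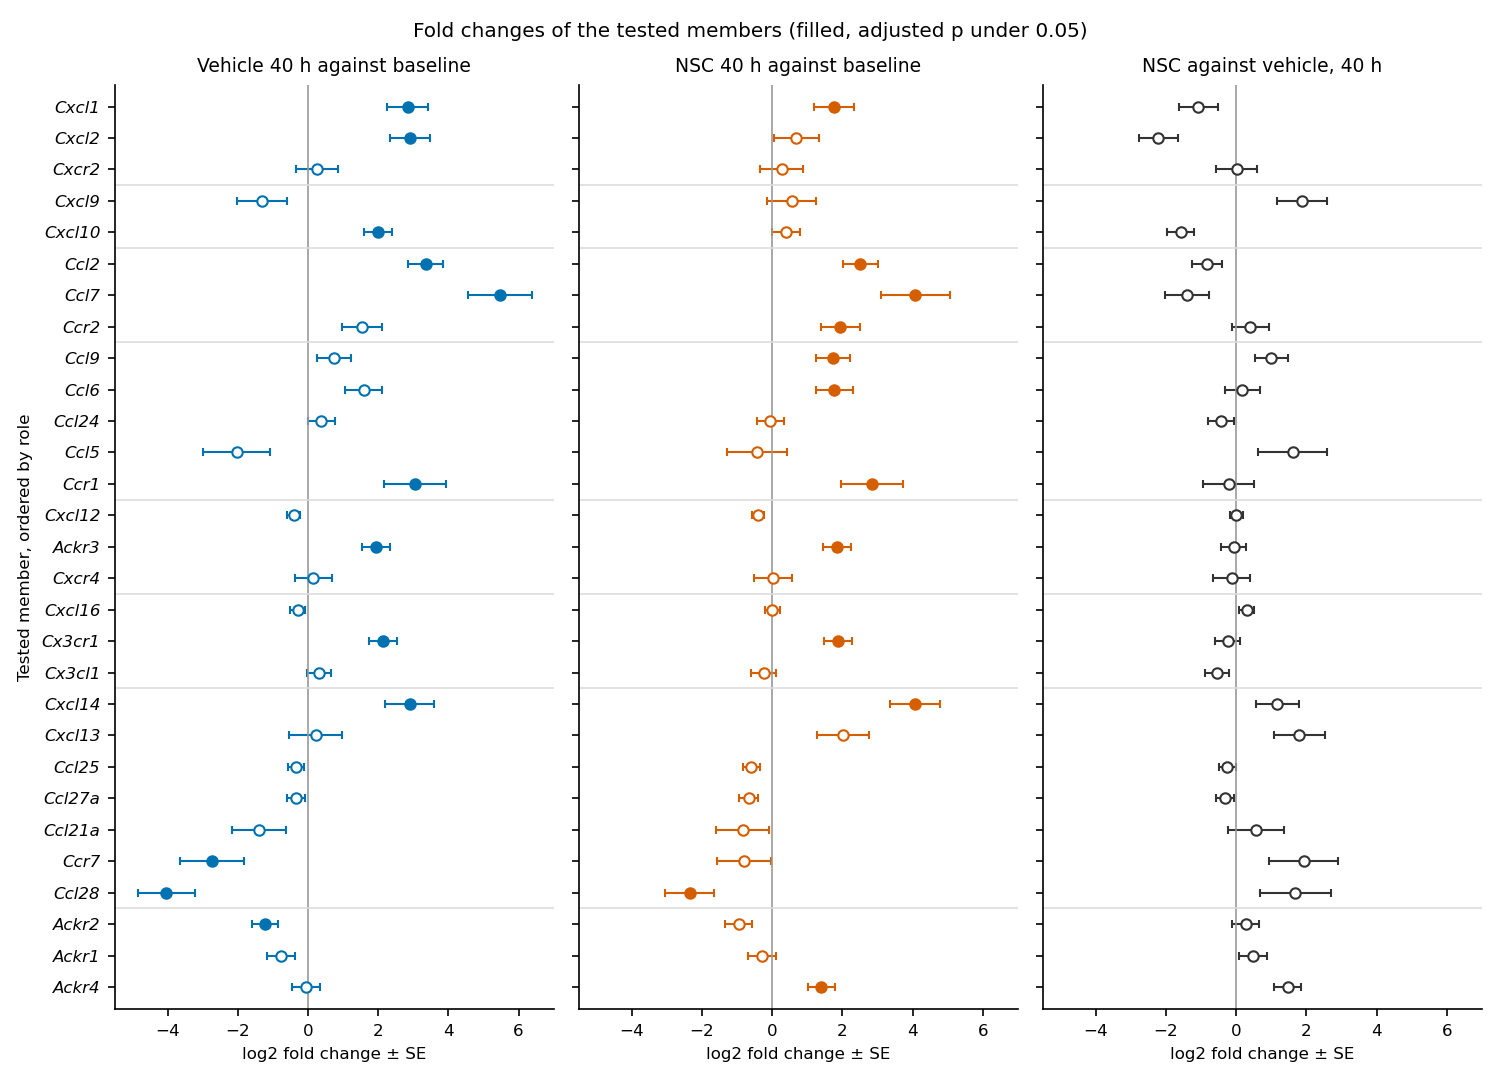
Log2 fold change ± SE (x axis) of 29 tested members (y axis, grouped by role from neutrophil-attracting genes at the top to atypical receptors at the bottom) in the 3 comparisons, with filled points for adjusted p under 0.05. Filled points lie mostly to the right of 0 in the comparisons with baseline, 9 against 3 for vehicle and 11 against 1 for NSC. None is filled in the direct comparison. Of all tested genes, 12.7% were called higher and 11% lower for vehicle, and 18.2% and 16.5% for NSC. In the direct comparison these shares were 0% and 0.0399%.

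Of the neutrophil-attracting genes, *Cxcl1* was called higher in both kinds of remnant and *Cxcl2* in vehicle remnants. *Cxcl1*, a ligand of CXCR2 that calls neutrophils, stood at 18.8, 42.0 and 8.88 CPM in the 3 resection specimens, 147, 163 and 187 CPM in the vehicle remnants and 46.7, 122 and 65.6 CPM in the NSC remnants. The 3 groups did not overlap, with vehicle highest and NSC between vehicle and baseline. *Cxcl1* rose in vehicle remnants by a log2 fold change of 2.83 ± 0.59 (SE; adjusted p = 0.0123) and in NSC remnants by 1.75 ± 0.57 (adjusted p = 0.0477). The direct difference, NSC minus vehicle, was -1.08 ± 0.56 (adjusted p = 0.324). The NSC call was close to the threshold and was lost without any of baseline replicates 1 and 3, the vehicle replicates or the NSC replicates (1.27 to 2.02, adjusted p = 0.0566 to 0.129), with a range of 0.00722 to 0.129 over all alternatives. That call was also lost without a filter on low counts and with only the groups compared in the fit. Without baseline replicate 2, the values were larger, 3.58 in vehicle and 2.50 in NSC remnants. Among the libraries left out in turn, the vehicle call was lost only without baseline replicate 1 (2.70, adjusted p = 0.0508, with 4.89e-05 to 0.0508 over all alternatives).

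*Cxcl2*, another CXCR2 ligand, stood at 0.221, 0.0611 and 0.231 CPM in the resection specimens, 0.701, 1.24 and 1.99 CPM in vehicle and 0.150, 0.374 and 0.313 CPM in NSC remnants. Every vehicle remnant was above every other library, while NSC remnants overlapped the resection specimens. It rose in vehicle remnants by 2.91 ± 0.58 (adjusted p = 0.00410), and its value in NSC remnants was 0.69 ± 0.65 (adjusted p = 0.436). The receptor *Cxcr2* did not pass the test, at 0.26 ± 0.60 in vehicle and 0.27 ± 0.61 in NSC remnants, and its sign turned without vehicle replicate 2 or baseline replicate 3 in the former (-0.37 to -0.01) and without NSC replicate 1 in the latter (-0.29). *Cxcl3*, *Cxcl5*, *Cxcl15* and the receptor *Cxcr1* had too few counts for a test, with at most 12 counts in any library. Of the 11 neutrophil markers listed, 6 were tested, of which 2 were called higher in vehicle and 4 in NSC remnants. The summed levels of all 11 were 11.2, 3.69 and 6.93 CPM in the resection specimens, 12.6, 21.4 and 10.3 CPM in vehicle and 23.1, 17.4 and 14.3 CPM in NSC remnants. Their part in the *Cxcl1* and *Cxcl2* values was not tested.

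**Figure D2:**
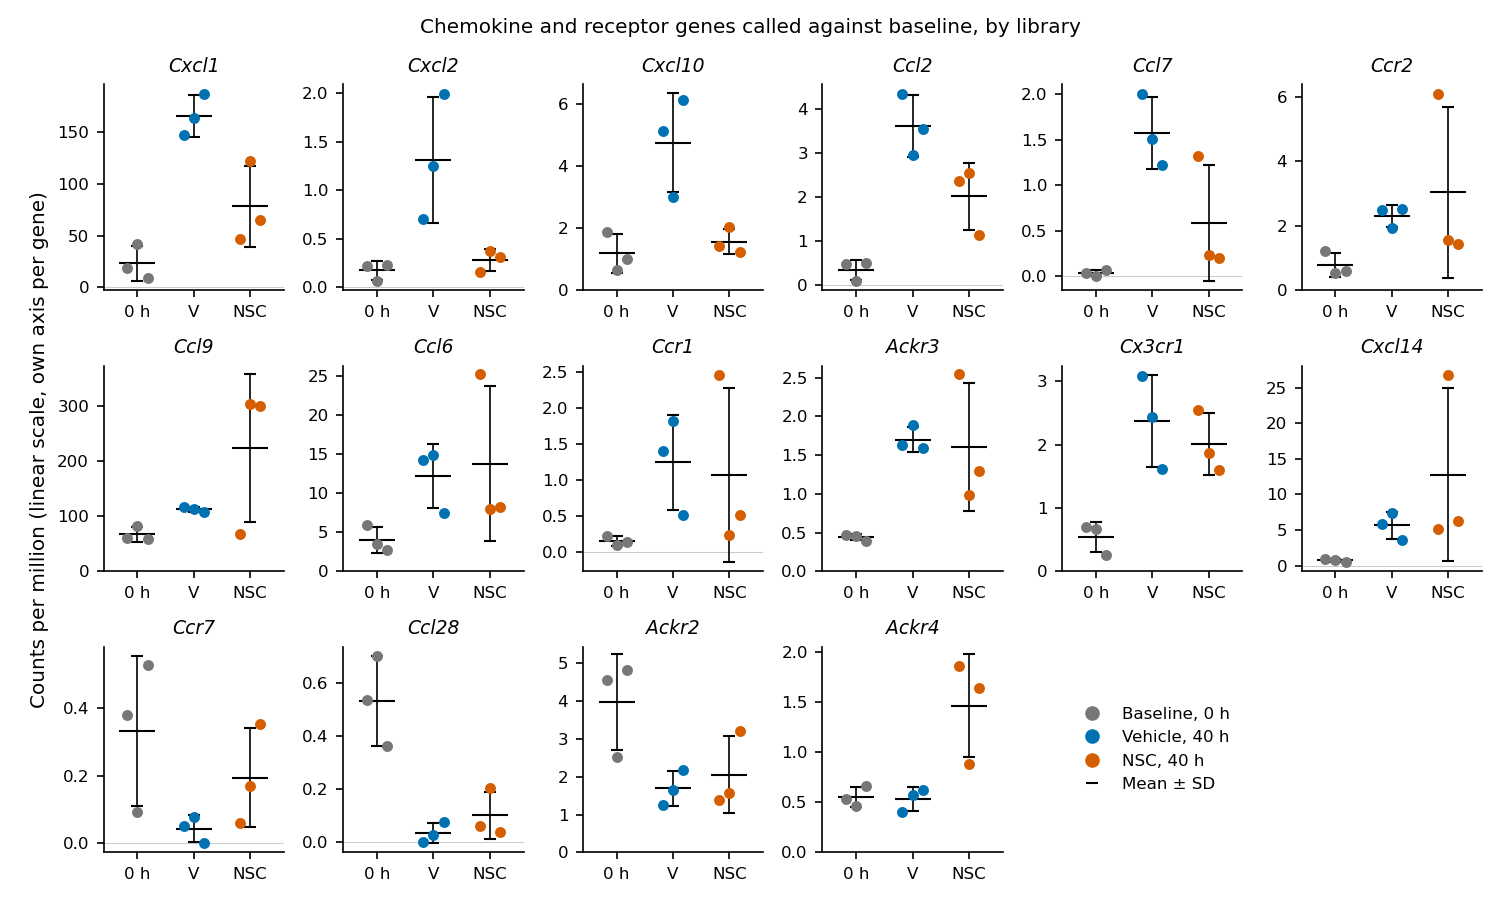
Level in CPM (y axis, linear, a separate axis per gene) of 16 members called in either comparison with baseline, by group (x axis: 0 h, vehicle, NSC), with 1 point per library, a bar at the mean and whiskers of 1 SD (n = 3). *Cxcl1*, *Cxcl2* and *Cxcl10* have all NSC points below all vehicle points, and the NSC spread of *Ccr1*, *Ccr2* and *Ccl6* comes from 1 high point, replicate 1.

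The interferon-inducible ligands of CXCR3 took different courses. *Cxcl10* stood at 1.90, 0.672 and 1.02 CPM in the resection specimens, 5.13, 3.01 and 6.13 CPM in vehicle remnants and 1.44, 2.04 and 1.25 CPM in NSC remnants. Vehicle remnants were above all other libraries, and NSC remnants overlapped the resection specimens. *Cxcl10* rose in vehicle remnants (1.98 ± 0.40, adjusted p = 0.00431), and was at 0.40 ± 0.41 in NSC remnants (adjusted p = 0.472). *Cxcl9*, the other tested ligand of this receptor, was at 6.89, 7.30 and 7.03 CPM in the resection specimens, 2.55, 2.95 and 2.99 CPM in vehicle remnants and 23.8, 3.74 and 3.37 CPM in NSC remnants. All vehicle remnants were below all resection specimens, and among NSC remnants replicate 1 was far above, and the other replicates below, every resection specimen. It passed neither test, with -1.32 ± 0.71 in vehicle (adjusted p = 0.220) and 0.55 ± 0.69 in NSC remnants (adjusted p = 0.568). Without NSC replicate 1 it was called lower in both, at -1.32 in vehicle (adjusted p = 0.000255, with 0.000255 to 0.401 over all alternatives) and -0.99 in NSC remnants (adjusted p = 0.00393, with 0.00393 to 0.907 over all alternatives). The receptor *Cxcr3* had at most 18 counts in a library and was not tested.

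Both tested monocyte-attracting ligands rose in both kinds of remnant. *Ccl2*, the main ligand of CCR2, stood at 0.474, 0.0916 and 0.495 CPM in the resection specimens, 4.35, 2.95 and 3.54 CPM in vehicle remnants and 2.37, 2.55 and 1.13 CPM in NSC remnants. The groups did not overlap, and vehicle remnants were highest. It rose by 3.35 ± 0.49 in vehicle (adjusted p = 0.000779) and by 2.52 ± 0.49 in NSC remnants (adjusted p = 0.00255). *Ccl7*, a second CCR2 ligand in the same gene cluster on chromosome 11, was at 0.0316, 0 and 0.0660 CPM in the resection specimens, 2.00, 1.5 and 1.22 CPM in vehicle remnants and 1.32, 0.238 and 0.196 CPM in NSC remnants. The resection specimens held 3 *Ccl7* counts in all, so that its fold is given as a ratio of summed counts, scaled to library size, with a 95% counting interval. Such an interval leaves out the spread between mice. With 171 counts, vehicle remnants were 51.1 times the baseline (17.2 to 250.2), and with 56 counts NSC remnants were 20.0 times the baseline (6.51 to 100). *Ccl7* was called higher in both (adjusted p = 0.00177 and 0.00770). Most of the NSC counts came from replicate 1. The fitted log2 value of *Ccl7* in NSC remnants was 4.08, and 2.63 without that library. Without baseline replicate 3 the fitted values were larger, 6.35 for vehicle (5.47 with it) and 4.96 for NSC remnants, and each of these stayed past the threshold.

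The receptor *Ccr2*, carried by inflammatory monocytes, was at 1.23, 0.550 and 0.594 CPM in the resection specimens, 2.50, 1.92 and 2.51 CPM in vehicle remnants and 6.09, 1.56 and 1.45 CPM in NSC remnants. No remnant overlapped the resection specimens, and NSC replicate 1 was the highest library. *Ccr2* rose in NSC remnants (1.94 ± 0.56, adjusted p = 0.0205), and was at 1.54 ± 0.56 in vehicle remnants, just outside the threshold (adjusted p = 0.0685). The NSC call was lost without baseline replicate 2 or 3 or NSC replicate 1 (0.93 to 1.78, adjusted p = 0.0703 to 0.0790, with 0.00166 to 0.0790 over all alternatives). Leaving out NSC replicate 1 or 3 brought the vehicle value past the threshold (adjusted p = 0.00419 to 0.0487, with 0.00419 to 0.190 over all alternatives), as DESeq2 and the fit of only those groups also did. The other CCR2 ligands, *Ccl8* and *Ccl12*, were not tested, with at most 12 counts in a library.

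Of the 5 tested ligands and receptors of the CCR1 and CCR3 axes described here, 3 were called higher in NSC remnants, where 18.2% of all genes were, and 1 in vehicle remnants, where 12.7% were. No direct difference passed the test, and which of the 5 were called changed without NSC replicate 1, as given for each. *Ccl9*, a CCR1 ligand of rodents, stood at 60.4, 82.2 and 58.7 CPM in the resection specimens, 116, 112 and 108 CPM in vehicle remnants and 68.0, 302 and 299 CPM in NSC remnants. Vehicle remnants lay together above the resection specimens, whereas in NSC remnants replicates 2 and 3 were the highest libraries and replicate 1 lay within the baseline range. *Ccl9* rose in NSC remnants by 1.73 ± 0.48 (adjusted p = 0.0246), and was at 0.74 ± 0.47 in vehicle remnants (adjusted p = 0.295). The NSC call was lost without any baseline replicate or without NSC replicate 2 or 3 (1.46 to 1.91, adjusted p = 0.0527 to 0.0845, with 8.21e-07 to 0.0845 over all alternatives). That call was also lost without a filter on low counts, with only the groups compared in the fit, and with replicate number in the model. Without NSC replicate 1, *Ccl9* was called higher in vehicle remnants as well (0.74, adjusted p = 0.00305, with 0.00305 to 0.491 over all alternatives).

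*Ccl6*, a further rodent CCR1 ligand next to *Ccl9* on chromosome 11, was at 5.94, 3.57 and 2.74 CPM in the resection specimens, 14.3, 14.9 and 7.53 CPM in vehicle remnants and 25.3, 7.98 and 8.26 CPM in NSC remnants. All remnants were above the resection specimens, with NSC replicate 1 highest. The change passed the test in NSC remnants (1.76 ± 0.53, adjusted p = 0.0316) but not in vehicle remnants (1.59 ± 0.52, adjusted p = 0.0596). The NSC call was lost without baseline replicate 2 or 3 (adjusted p = 0.104 to 0.108, with 0.000456 to 0.108 over all alternatives), and without NSC replicate 1 the NSC value was 0.99. The NSC call was lost without a filter on low counts as well. Without NSC replicate 1 or 2, the vehicle value passed the threshold (adjusted p = 0.00363 to 0.0480, with 0.00257 to 0.174 over all alternatives). *Ccl5*, a ligand of CCR1 and CCR3 made largely by T and NK cells, did not pass, at -2.03 ± 0.96 in vehicle and -0.42 ± 0.86 in NSC remnants, and neither did the CCR3 ligand *Ccl24*, at 0.38 ± 0.37 and -0.06 ± 0.38. Without NSC replicate 1, *Ccl5* was called lower in both (-2.03 and -3.06, adjusted p = 0.0159 and 0.00839, with 0.0159 to 0.343 and 0.00839 to 0.970 over all alternatives), and without NSC replicate 2 or 3 the sign of its NSC value turned (0.05 to 0.08).

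The receptor *Ccr1*, carried by monocytes and neutrophils, was at 0.221, 0.0916 and 0.132 CPM in the resection specimens, 1.40, 1.81 and 0.517 CPM in vehicle remnants and 2.46, 0.238 and 0.509 CPM in NSC remnants. No remnant overlapped the resection specimens, although NSC replicate 2 was close to them. *Ccr1* rose in vehicle (3.06 ± 0.88, adjusted p = 0.0300) and in NSC remnants (2.84 ± 0.89, adjusted p = 0.0312). The vehicle call was lost without any baseline replicate or vehicle replicate 1 or 2 (adjusted p = 0.0673 to 0.0970, with 0.00152 to 0.0970 over all alternatives). The NSC call was lost without any baseline replicate or NSC replicate 1 (adjusted p = 0.0594 to 0.175, with 0.00251 to 0.175 over all alternatives), and its log2 fold change without NSC replicate 1 was 1.29. Both calls of *Ccr1* were also lost without a filter on low counts.

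Marker genes of Kupffer cells and of monocytes and macrophages were measured in the same libraries. Of the 6 Kupffer cell markers, 4 (*Vsig4*, *Timd4*, *Cd5l* and *Marco*) were called higher in NSC remnants and 1 (*Marco*, a scavenger receptor of macrophages) in vehicle remnants. *Clec4f*, a Kupffer cell lectin, was called in neither, at -0.54 ± 0.21 and 0.08 ± 0.21. The 6 measured monocyte and macrophage markers summed to 85.4, 56.8 and 55.9 CPM in the resection specimens, 85.5, 107 and 55.5 CPM in vehicle remnants and 158, 78.3 and 75.7 CPM in NSC remnants, and 1 was called higher in vehicle and 2 in NSC remnants. *Ly6c2*, a marker of inflammatory monocytes, was at 0.25 ± 0.49 and 0.26 ± 0.49, and *Csf1r*, the macrophage growth factor receptor, at -0.39 ± 0.28 and 0.09 ± 0.28, none of them called. No listed marker of these cells was at 0 in every library. NSC replicate 1 was the highest NSC library for *Ccr1*, *Ccr2*, *Ccl6* and for these marker sums, but the lowest for *Ccl9*. The part of these markers in the receptor results was not tested.

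**Figure D3:**
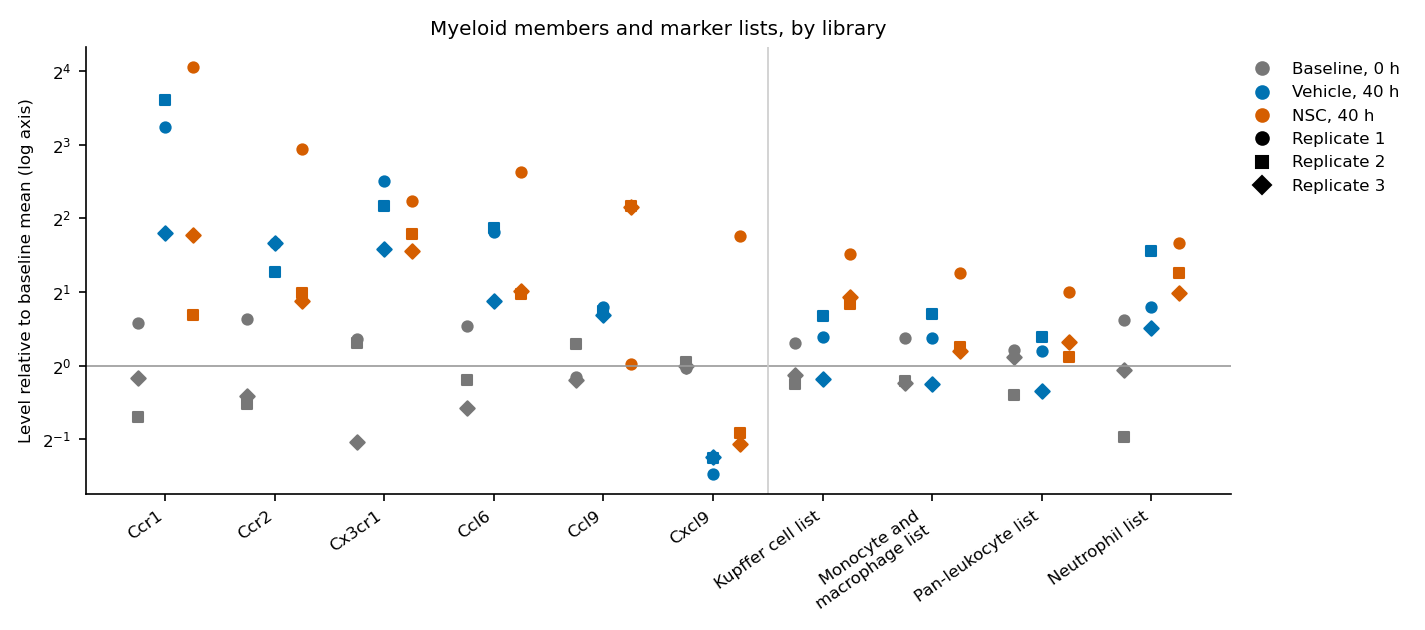
Level of 6 members and of 4 summed marker lists in each library (y axis, log scale), divided by the mean of the 3 resection specimens, with color for the group and symbol for the replicate. NSC replicate 1 (orange circle) is the highest NSC point for every item shown except *Ccl9*, where it sits at the baseline mean.

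The ligand of the CXCL12 axis was abundant and was not called in either comparison. *Cxcl12*, a ligand of stromal and endothelial cells that acts through CXCR4, was at 431, 291 and 444 CPM in the resection specimens, 276, 296 and 309 CPM in vehicle remnants and 319, 269 and 294 CPM in NSC remnants. Baseline replicate 2 lay within the range of the remnants and the other resection specimens above it. The log2 fold changes were -0.41 ± 0.18 in vehicle (adjusted p = 0.123) and -0.40 ± 0.18 in NSC remnants (adjusted p = 0.104). Without baseline replicate 2, *Cxcl12* was called lower in both (-0.58 and -0.57, adjusted p = 0.0362 and 0.0268, with 0.0362 to 0.378 and 0.0268 to 0.336 over all alternatives). The receptor *Cxcr4* did not pass, at 0.14 ± 0.53 and 0.01 ± 0.54. Of the 6 stellate and mesenchymal markers, 3 were called higher in vehicle and 1 in NSC remnants, and of the 6 endothelial markers 1 was called lower in vehicle remnants. Their part in the *Cxcl12* values was not tested.

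*Ackr3*, an atypical receptor that removes CXCL12, was called where its ligand was not. It stood at 0.474, 0.458 and 0.396 CPM in the resection specimens, 1.63, 1.89 and 1.59 CPM in vehicle remnants and 2.55, 0.985 and 1.29 CPM in NSC remnants. Every remnant was above every resection specimen, and vehicle and NSC remnants overlapped. *Ackr3* rose by 1.93 ± 0.39 in vehicle (adjusted p = 0.00464) and by 1.86 ± 0.40 in NSC remnants (adjusted p = 0.00399), and both calls held under each alternative.

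The other atypical receptors each gave a different picture. *Ackr2*, a scavenger of inflammatory CC chemokines, was at 4.55, 2.50 and 4.82 CPM in the resection specimens, 1.25, 1.66 and 2.18 CPM in vehicle remnants and 1.38, 1.56 and 3.21 CPM in NSC remnants. Vehicle remnants lay below all resection specimens, and NSC replicate 3 overlapped them. *Ackr2* fell in vehicle remnants (-1.23 ± 0.38, adjusted p = 0.0346), and was at -0.96 ± 0.38 in NSC remnants (adjusted p = 0.0678). The vehicle call was lost without baseline replicate 1 or 3 or any vehicle replicate (adjusted p = 0.0511 to 0.130, with 0.00828 to 0.130 over all alternatives), and the NSC value passed without baseline replicate 2 or NSC replicate 3 (-1.42 to -1.20, adjusted p = 0.0148 to 0.0343, with 0.0148 to 0.208 over all alternatives). *Ackr1*, the chemokine receptor of venules and red cells, did not pass, at -0.76 ± 0.40 and -0.29 ± 0.40.

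*Ackr4*, a scavenger of CCL19, CCL21 and CCL25, stood at 0.537, 0.458 and 0.660 CPM in the resection specimens, 0.400, 0.570 and 0.627 CPM in vehicle remnants and 1.86, 0.883 and 1.64 CPM in NSC remnants. Only NSC remnants were set apart, all above every other library. *Ackr4* rose in NSC remnants (1.40 ± 0.39, adjusted p = 0.0154), with a vehicle value of -0.06 ± 0.41 (adjusted p = 0.936). The NSC call was lost without baseline replicate 2 (1.28, adjusted p = 0.0545, with 0.00679 to 0.0545 over all alternatives), and the sign of the vehicle value turned without baseline replicate 3 or vehicle replicate 1 (0.09 to 0.12). The gene's span (chr9:104084157-104126933, build GRCm38) overlaps *Acad11*, an acyl-CoA dehydrogenase gene with 91218 counts in all, on the other strand. The libraries kept strand, but whether the counting used it is not given in the sources used here, so reads of *Ackr4* and of this neighbour cannot be told apart.

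Of the fractalkine and CXCL16 pairs, the receptor *Cx3cr1* was called and the ligands were not. *Cx3cr1*, carried by patrolling monocytes and some macrophages, was at 0.695, 0.672 and 0.264 CPM in the resection specimens, 3.08, 2.44 and 1.62 CPM in vehicle remnants and 2.55, 1.87 and 1.60 CPM in NSC remnants. All remnants lay above all resection specimens, and the remnant groups overlapped. *Cx3cr1* rose by 2.12 ± 0.40 in vehicle (adjusted p = 0.00306) and by 1.88 ± 0.40 in NSC remnants (adjusted p = 0.00413), and both calls held under each alternative. Its span overlaps 5 other genes, of which *Wdr48*, on the other strand, had the most counts, 8225. *Gorasp1*, *Csrnp1* and *Xirp1*, with 7166, 4999 and 193 counts, lie on the same strand, so strand could not separate their reads from those of *Cx3cr1*. The ligand *Cx3cl1* was at 0.31 ± 0.34 and -0.24 ± 0.35, and *Cxcl16*, the ligand of CXCR6, at -0.29 ± 0.21 and 0.01 ± 0.21. *Cxcr6*, *Xcl1* and *Xcr1* were not tested, with at most 18 counts in a library.

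Among chemokines of lymphoid tissue and of homeostasis, 7 of 21 members were tested. *Cxcl14*, an epithelial chemokine, stood at 0.948, 0.824 and 0.495 CPM in the resection specimens, 5.83, 7.44 and 3.65 CPM in vehicle remnants and 5.16, 26.8 and 6.30 CPM in NSC remnants. All remnants were above all resection specimens, and NSC replicate 2 was far above the rest. *Cxcl14* rose by 2.89 ± 0.70 in vehicle (adjusted p = 0.0194) and by 4.07 ± 0.72 in NSC remnants (adjusted p = 0.00346), the latter under each alternative. Without NSC replicate 2 the NSC value was 2.92. The vehicle call was lost without any baseline replicate or vehicle replicate 1 or 2 (adjusted p = 0.0509 to 0.0767, with 0.000192 to 0.0767 over all alternatives). It was also lost without a filter on low counts.

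*Ccl28*, a mucosal epithelial ligand of CCR10 and CCR3, was the only member called lower in NSC remnants. It stood at 0.537, 0.702 and 0.363 CPM in the resection specimens, 0, 0.0259 and 0.0738 CPM in vehicle remnants and 0.0600, 0.204 and 0.0391 CPM in NSC remnants. The remnants lay below all resection specimens. With 51 counts in the resection specimens against 3 in vehicle remnants, the baseline was 19.0 times the vehicle level (95% counting interval 6.13 to 95). The call in vehicle remnants (adjusted p = 0.00454) held under each alternative that tested the gene, with a fitted log2 value of -4.03 that was -3.41 without vehicle replicate 1 and -5.02 without vehicle replicate 3. In NSC remnants *Ccl28* fell (-2.35 ± 0.69, adjusted p = 0.0206), a call lost without baseline replicate 1 or 2 or NSC replicate 1 or 3 (adjusted p = 0.0523 to 0.0691, with 0.0187 to 0.0691 over all alternatives). Without NSC replicate 2 the NSC value was -3.30. The 5 cholangiocyte markers summed to 37.8, 40.6 and 38.0 CPM in the resection specimens, 114, 77.7 and 76.0 CPM in vehicle remnants and 82.8, 121 and 79.0 CPM in NSC remnants, with 4 called higher in vehicle and 3 in NSC remnants. The 3 mesothelial markers summed to 1.58, 1.31 and 3.1, then 16.1, 16.5 and 17.9, then 13.8, 9.17 and 0.274 CPM, with 1 called higher in vehicle remnants and NSC replicate 3 below every resection specimen. None of these 8 markers was at 0 in every library, and their part in the *Cxcl14* and *Ccl28* values was not tested.

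*Ccr7*, which guides dendritic cells and naive T cells to lymph nodes, was at 0.379, 0.0916 and 0.528 CPM in the resection specimens, 0.0501, 0.0777 and 0 CPM in vehicle remnants and 0.0600, 0.170 and 0.352 CPM in NSC remnants. Vehicle remnants were below all resection specimens, while NSC remnants overlapped them. With 31 counts against 5, the baseline was 6.92 times the vehicle level (95% counting interval 2.67 to 22.8), and the call was at the edge of the threshold (adjusted p = 0.0480). It was lost without baseline replicate 1 or 3, any vehicle replicate or NSC replicate 2 (adjusted p = 0.0665 to 0.175, with 0.0251 to 0.175 over all alternatives). Adding replicate number to the model also ended the call. The fitted log2 value was -2.73, and -3.34 without vehicle replicate 2. The 10 T and NK cell markers summed to 6.10, 2.47 and 6.04 CPM in the resection specimens, 1.10, 1.76 and 1.48 CPM in vehicle remnants and 2.76, 2.34 and 3.40 CPM in NSC remnants, and 1 of the 4 tested, *Cd3g*, was called lower in vehicle remnants. None of the 5 tested dendritic cell markers was called in either comparison. The part of these markers in the *Ccr7* value was not tested.

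*Cxcl13*, which draws B cells through CXCR5, did not pass, at 1.42, 0.886 and 0.495 CPM in the resection specimens, 2.05, 0.985 and 0.148 CPM in vehicle remnants and 5.94, 3.74 and 1.68 CPM in NSC remnants. Every NSC remnant was above every resection specimen, and vehicle remnants overlapped both. The NSC value was 2.02 ± 0.75 (adjusted p = 0.0632) and passed without vehicle replicate 1 or 3 or NSC replicate 3 (adjusted p = 0.0164 to 0.0410, with 0.00257 to 0.184 over all alternatives), as it also did with DESeq2 and with only those groups in the fit. The vehicle value was 0.22 ± 0.76, and its sign turned without baseline replicate 3 or vehicle replicate 1 (-0.65 to -0.08). The homeostatic ligands *Ccl25* (of CCR9), *Ccl27a* (of CCR10) and *Ccl21a* (of CCR7) were not called, with log2 fold changes between -1.39 and -0.35 in vehicle and between -0.84 and -0.60 in NSC remnants. *Ccl27a* and *Ccl21a* have near-identical copies, among them *Ccl27b* and *Ccl21b*, between which reads could have been split.

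To set levels side by side between genes, CPM were divided by the listed gene length. The length of the transcripts present was not measured, and the order below rests on this divisor. Undivided, *Cxcl12* (8176 bases) had a higher mean than *Cxcl1* (953 bases) in every group. The means were 389 against 23.2 CPM in the resection specimens, 293 against 166 in vehicle remnants and 294 against 78.2 in NSC remnants. Per kilobase, the most abundant members over the 9 libraries were *Cxcl1*, *Ccl9*, *Cxcl12*, *Ccl6* and *Cxcl14*, in that order. The mean level of *Cxcl1* was 24.4 ± 17.8 CPM per kilobase in the resection specimens (SD, n = 3), 174 ± 21.1 in vehicle remnants and 82.0 ± 41.3 in NSC remnants. For *Ccl9* the level was 22.0 ± 4.31, then 36.8 ± 1.46, then 73.3 ± 44.1, and for *Cxcl12* it was 47.5 ± 10.4, then 35.9 ± 2.04, then 36.0 ± 3.04 CPM per kilobase. The order thus differed between groups. *Cxcl12* had the highest mean in the resection specimens, although baseline replicate 2 had more *Cxcl1* than *Cxcl12*. *Cxcl1* led in all 3 vehicle remnants, and *Cxcl1* (replicates 1 and 2) or *Ccl9* (replicate 3) led in NSC remnants.

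The summed level of the 37 ligand genes was 114, 123 and 99.6 CPM per kilobase in the resection specimens, 259.8, 276 and 295 in vehicle remnants and 157, 295 and 225 in NSC remnants. *Cxcl1* made up 17.3, 35.9 and 9.35% of it in the resection specimens, 59.3, 62.0 and 66.4% in vehicle remnants and 31.2, 43.5 and 30.6% in NSC remnants. *Cxcl12* made up 46.4, 28.9 and 54.6%, then 13.0, 13.1 and 12.8%, then 24.8, 11.2 and 16.0%. The neutrophil-attracting ligand thus took the larger part of the ligand level per kilobase in every vehicle remnant, and a smaller one in every NSC remnant. The share of *Ccl9* was 17.4, 22.0 and 19.4% in the resection specimens, 14.7, 13.3 and 12.0% in vehicle remnants and 14.2, 33.6 and 43.7% in NSC remnants, so that it was highest in NSC replicates 2 and 3. These shares are fixed by the levels above, depend on the same gene lengths and were given no test of their own.

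**Figure D4:**
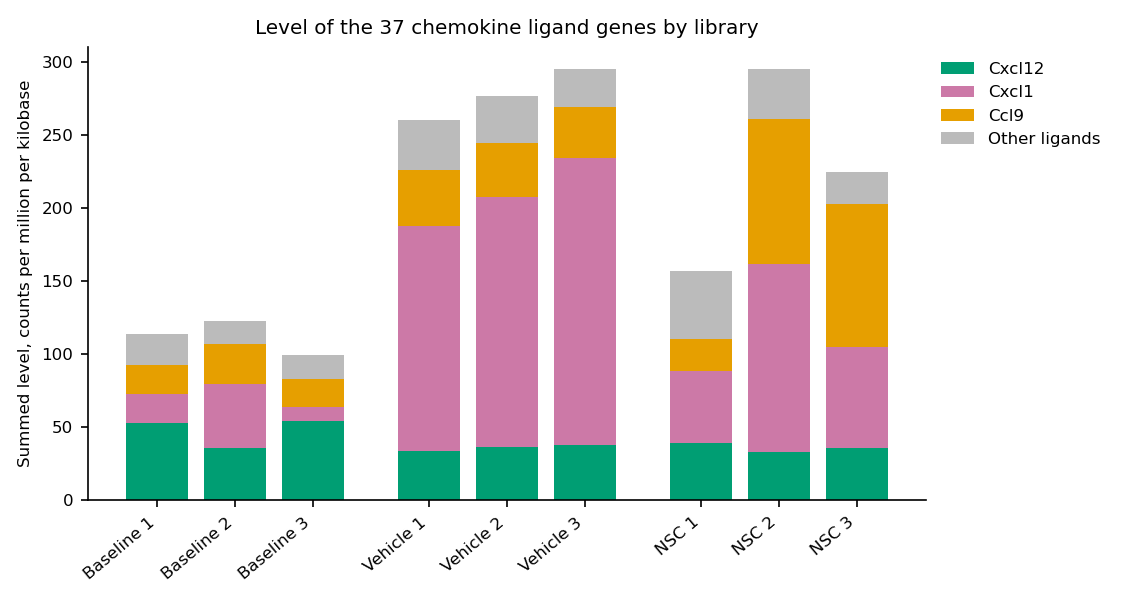
Summed level of the 37 ligand genes in CPM per kilobase (y axis, from 0) in each library (x axis), divided into *Cxcl12*, *Cxcl1*, *Ccl9* and all others. The resection specimens reach 114, 123 and 99.6, the *Cxcl1* part is the largest in each vehicle remnant, and the *Ccl9* part is widest in NSC replicates 2 and 3.

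The direct comparison asked which members differed between NSC and vehicle remnants at 40 h. None of the 30 tested members was called with edgeR's quasi-likelihood test, where 0% of all tested genes were called higher and 0.0399% (6 genes) lower. At an unadjusted p under 0.05 there were 7 members (23.3% of those tested, beside 19.5% of all tested genes), 3 with lower values in NSC remnants (*Cxcl10*, *Cxcl2* and *Ccl7*) and 4 with higher values (*Ackr4*, *Cxcl9* and *Cxcl13* among them). DESeq2 called *Cxcl10* lower, among 292 higher and 466 lower genes in all. The median log2 difference of the members was 0.09, beside 0.02 over all genes.

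The log2 difference, NSC minus vehicle, was -2.22 ± 0.55 for *Cxcl2* (unadjusted p = 0.00160, adjusted p = 0.0907) and -1.58 ± 0.39 for *Cxcl10* (unadjusted p = 0.00159, adjusted p = 0.0907). For both, all 3 NSC remnants were below all 3 vehicle remnants, which for a single gene cannot give an exact two-sided permutation p below 0.1. Without a filter on low counts, edgeR called both lower, among 68 higher and 153 lower genes of 24325. For *Ccl2*, too, NSC remnants lay below vehicle remnants, with a difference of -0.84 ± 0.42 (adjusted p = 0.293). *Ccl7* was at -1.39 ± 0.63 (adjusted p = 0.249), and without NSC replicate 1 at -2.84 (adjusted p = 0.0106, with 0.0106 to 0.505 over all alternatives). Leaving out that library raised the direct calls over all genes from 0 higher and 6 lower to 574 and 420 of 15390.

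In the other direction, *Ackr4* was higher in all NSC than in all vehicle remnants by 1.46 ± 0.39 (unadjusted p = 0.00266, adjusted p = 0.09996). *Cxcl9* was at 1.87 ± 0.72 (adjusted p = 0.215), with no overlap between the groups but with replicates 2 and 3 close to the vehicle remnants, and at 0.33 without NSC replicate 1. *Cxcl13* was at 1.80 ± 0.73 (adjusted p = 0.224). *Ccl9* was at 0.99 ± 0.47 (adjusted p = 0.289). Without NSC replicate 1 it was called higher in NSC remnants (1.42, adjusted p = 0.000647, with 0.000647 to 0.556 over all alternatives), among 574 genes called higher in that fit.

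Of 48 listed symbols of genes that act with chemokines (chemokine-like ligands, G protein and kinase steps, NF-κB), 46 were present and all of these were tested. The symbols not present, *Grk2* and *Grk3*, name genes that were tested under the older symbols *Adrbk1* and *Adrbk2*. In vehicle remnants 2 were called higher (4.35%, beside 12.7% of all genes) and 3 lower (6.52%, beside 11%), and in NSC remnants 5 higher (10.9%, beside 18.2%) and 7 lower (15.2%, beside 16.5%). The share called was thus below the background in each direction, and the genes named next are given as single values. *Nfkbiz*, a nuclear regulator of NF-κB targets, rose in vehicle remnants (2.29 ± 0.35, adjusted p = 0.00168), from 7.74, 11.0 and 6.30 CPM to 32.3, 27.7 and 63.0 CPM, and was at 14.8, 18.7 and 10.8 CPM in NSC remnants (0.82 ± 0.34, adjusted p = 0.0876). *Nfkb2*, an NF-κB subunit, was also called higher in vehicle remnants (0.57 ± 0.17, adjusted p = 0.0302) and not in NSC remnants (-0.23 ± 0.17). *Nfkbia*, the gene of the inhibitor IκBα, and *Rela*, the gene of the p65 subunit, were called lower in NSC remnants (-0.76 ± 0.21 and -0.46 ± 0.14, adjusted p = 0.0158 and 0.0226). None of the 46 was called in the direct comparison, where 13 (28.3%) had an unadjusted p under 0.05, beside 19.5% of all genes.

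Further down the receptor pathway, *Cd74*, part of the receptor for the chemokine-like MIF, fell in vehicle (-2.13 ± 0.35, adjusted p = 0.00267) and in NSC remnants (-1.88 ± 0.35, adjusted p = 0.00314). *Mif* itself was called lower in NSC remnants (-1.12 ± 0.34, adjusted p = 0.0288). *Ptk2b*, a kinase activated by chemokine receptors, fell in both (-0.84 ± 0.15 and -1.05 ± 0.15, adjusted p = 0.00254 and 0.000475), and *Dpp4*, a protease that trims chemokines including CXCL10 and CXCL12, in vehicle remnants (-0.58 ± 0.14, adjusted p = 0.00957). *Cdc42*, a GTPase of cell movement, rose in NSC remnants (0.62 ± 0.14, adjusted p = 0.00591), as did the G protein subunit genes *Gnai3* and *Gnb1* (0.53 ± 0.15 and 0.48 ± 0.13, adjusted p = 0.0192 and 0.0155).

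The remaining 30 members were not tested, and their highest count in any library was 18. *Cxcl15*, *Ccl26*, *Ccr4* and *Ccr8* had 0 counts in every library, which allows a level of up to 0.0751 to 0.117 CPM. With those, 11 members had at most 3 counts in every library, among them *Ccl20* and its receptor *Ccr6*, a pair of mucosal immunity, and the eosinophil-attracting ligand *Ccl11*. Also untested were the macrophage inflammatory proteins *Ccl3* and *Ccl4*, the CCR7 ligand *Ccl19*, the CCR4 ligands *Ccl17* and *Ccl22*, and *Cxcr5*, the receptor of CXCL13. *Ccl1*, *Ccr10* and *Ccr3*, the receptor of eosinophils, had at most 2, 1 and 4 counts, *Ccr1l1* at most 4 and *Ccr9*, the receptor of CCL25, at most 9. The mucosal chemokine *Cxcl17* had 0 counts in every resection specimen, 5, 6 and 7 in vehicle remnants and 5, 0 and 0 in NSC remnants. When no filter on low counts was set, edgeR tested 24325 genes. In vehicle remnants 1880 of them were called higher and 1577 lower, and in NSC remnants 2590 and 2396. Of these 30 members, 4 were called, *Cxcl5* and *Cxcl17* higher in vehicle remnants, and *Ccl12* higher and *Ccl22* lower in NSC remnants. For the others a difference between groups was not detectable at this depth.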

How the data were processed

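RNA from 9 samples of liver tissue was sequenced as stranded, paired-end mRNA libraries. Per the labels and the study's methods, the authors aligned reads with STAR 2.6.1 within the MAP-RSeq pipeline and assigned them to genes with featureCounts of Subread 1.5.1. The sources name the human build hg38, whereas gene identifiers and coordinates of the table are mouse. All 60 members were found by identifier in the mouse annotation GENCODE M21 (GRCm38), 39 of them with identical coordinates. The deposited table holds raw read counts per gene and library, together with FPKM values that the authors made from them, which were not used here. Samples were grouped by their titles.

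Counts were normalized with TMM factors and fitted with edgeR 4.0.16 (quasi-likelihood, robust) in R 4.3.3, with all 3 groups in 1 model without covariates and its default filter by group, which left 15024 genes. Tests were two-sided, p-values were adjusted over those genes by the Benjamini-Hochberg method, and a gene was called under 0.05. Fold changes are log2 values from this model with their standard errors. CPM are counts per 1000000 counts of the TMM-scaled library. For levels between genes, CPM were divided by the table's gene length in kilobases. Where every library of a group held at most 3 counts of a gene, the ratio of summed counts is given with an exact 95% interval. That interval covers counting error only and leaves out the spread between mice. The script was tested on simulated data with known changes.

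The named genes were the called members of each comparison with baseline, the 5 members with the smallest p in the direct comparison, the 5 most abundant per kilobase, and a list of members well known in liver. *Ccl25*, *Ccl27a*, *Ccl21a* and members without enough counts were named outside that rule, to account for every member. The values of 1 member enter the fit and the counts but are not reported here or plotted. The members, gene lists and markers were chosen with earlier results of these data known. Alternatives were DESeq2 1.42.0, other scaling factors, other filters, a minimum log2 fold change of 1.5, only the groups compared, a replicate block, and each library left out in turn. Promoter windows came from RefSeq tables (GRCm38.p6).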

Additional observations from a re-analysis of the deposited data

Results flagged for a closer look

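*Cxcl11*, beside *Cxcl9* and *Cxcl10* on chromosome 5 (chr5:92359544-92365485), carries the name of a further interferon-inducible ligand of CXCR3. It lay outside the members because the table lists it as a polymorphic pseudogene. Whether its RNA yields a working ligand in these mice was not tested. The RNA of *Cxcl11* was above its baseline level in vehicle remnants. Its levels were 1.86, 2.90 and 3.07 CPM in the resection specimens, 3.75, 4.82 and 7.27 CPM in vehicle remnants and 3.90, 3.29 and 3.80 CPM in NSC remnants. With edgeR's quasi-likelihood test it rose in vehicle remnants by a log2 fold change of 1.01 ± 0.29 (adjusted p = 0.0247), and was at 0.49 ± 0.29 in NSC remnants (adjusted p = 0.212), with a direct difference of -0.52 ± 0.29 (adjusted p = 0.329). With 3 libraries a group, no library was tested for being an outlier.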

How the results depend on the processing

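The calls of *Ackr3*, *Ccl2*, *Ccl7* and *Cx3cr1* in both comparisons with baseline, of *Cxcl2*, *Cxcl10* and *Ccl28* in vehicle and of *Cxcl14* in NSC remnants held under each alternative that tested the gene. Over all genes of the naming rule and all alternatives, 979 values kept direction and side of the threshold, 59 lost the call, 36 gained it and 34 changed sign. The cause of these changes was not tested. Leaving out a library leaves fewer samples for the test, but it did not always lower the number of calls. Without NSC replicate 1, 2432 genes were called higher and 2106 lower in vehicle remnants, beside 1914 and 1650 with it.

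Counts that moved by over 1.5 times were as follows. A minimum of 10 counts in every library, which left 18 members to test, gave 4 higher and 1 lower in vehicle and 0 lower in NSC remnants. Without a filter, 3 were lower in NSC remnants and 2 lower in the direct comparison (2396 and 153 of all 24325 genes). DESeq2 gave 3 lower in NSC remnants (2778 of all 15024 genes) and 1 higher and 1 lower in the direct comparison (292 and 466 genes). The fit of only 2 groups gave 5 lower in vehicle remnants (2062 of all 14676 genes). Leaving out a library each gave 6 to 12 higher and 1 to 5 lower in vehicle remnants, 7 to 12 higher and 0 to 3 lower in NSC remnants, and 0 to 1 in each direction in the direct comparison. Over all genes, these fits called 1217 to 2432 higher and 1038 to 2106 lower in vehicle remnants. In NSC remnants they called 1854 to 2754 higher and 1750 to 2480 lower, and in the direct comparison 0 to 574 and 0 to 420. Among the members, vehicle counts of 1 lower came without baseline replicate 1 or 3 or any vehicle replicate, and the count of 5 without NSC replicate 1. NSC counts of 7 higher came without baseline replicate 2 or 3. For lower calls in NSC remnants, the count was 0 without baseline replicate 1, 2 without baseline replicate 2 or NSC replicate 3, and 3 without NSC replicate 1, which also gave the direct calls.

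Deviations of same-numbered libraries from their group means correlated at -0.05 to 0.13. Libraries with different numbers were not compared, so these values cannot show whether the replicate numbers pair the samples. A replicate block gave 11 higher and 2 lower members in vehicle and 12 higher and 3 lower in NSC remnants, and none in the direct comparison. Over all 15024 genes it gave 1902 and 1676, then 2663 and 2515, then 0 and 11. With this block the vehicle value of *Cxcl13* turned to -0.026. Scaling by library size only turned *Ccl24* in NSC remnants to 0.080 and *Ackr3* in the direct comparison to 0.072. It also shifted the median of all genes by 0.14 for NSC against baseline and by 0.13 in the direct comparison, and moved the split of all NSC calls from 2728 higher and 2479 lower (52.4% higher) to 3399 and 1795 (65.4%), while the member counts stayed the same as with TMM.

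Some values that were not called changed sign when a library was left out, and not all of them were near 0. With all libraries, *Cxcl9* was at 0.55 and *Ccl5* at -0.42 in NSC remnants, and both were called lower without NSC replicate 1. In vehicle remnants the ranges were -0.18 to 0.12 for *Ackr4*, -0.65 to 0.70 for *Cxcl13*, -0.37 to 0.83 for *Cxcr2* and -0.21 to 0.78 for *Cxcr4*. In NSC remnants they were -0.51 to 0.015 for *Ackr1*, -0.32 to 0.25 for *Ccl24*, -3.06 to 0.081 for *Ccl5*, -0.14 to 0.15 for *Cxcl16*, -0.99 to 0.97 for *Cxcl9*, -0.29 to 0.84 for *Cxcr2* and -0.34 to 0.65 for *Cxcr4*. In the direct comparison they were -0.20 to 0.49 for *Ackr2*, -0.59 to 0.18 for *Ackr3*, -0.60 to 0.45 for *Ccl6*, -1.77 to 0.26 for *Ccr1* and -0.62 to 0.73 for *Ccr2*. Depth limits the scarce members, since 30 of 60 could not be tested.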
